A study of Mus musculus with 3 samples.

Results

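Tcf1 peaks that were listed in regulatory T cells and not in conventional CD4 T cells, and that lay at the ends of genes, are described here. They were chosen by position from the deposited peak lists: a Treg peak on chromosomes 1 to 19 that overlapped no conventional peak, had no conventional midpoint within 1000 bp of its own midpoint, and had its midpoint within 1 kb of either end of a RefSeq gene span. The rule gave 537 peaks of 3402 in the Treg list and of 7921 in both lists. Of these, 18 lay in an array of 5S rRNA genes and 8 in other dense arrays, which are given separately, and 511 lay elsewhere. The study immunoprecipitated chromatin with an antiserum against Tcf1 from sorted mouse CD4 T cells. Regulatory T cells (Treg cells) were TCRb+, CD4+, CD25+ and Foxp3-Cre-GFP+. Conventional cells were TCRb+, CD4+, CD25- and Foxp3-Cre-GFP-, and 1 of their labels calls them effector cells. Both came from the spleen of wild type Foxp3-Cre-GFP mice aged 8 to 10 weeks, and both carry the Foxp3-driven reporter allele. The sources used here do not say how many mice stand behind each library. A library of Tcf1-deficient CD4 T cells, from mice with CD4-Cre and a floxed Tcf1 gene, was not analysed here. Each cell type had 1 library, so no difference between the cell types has a replicate check and no test was run. The lists give positions on mm10 without counts or heights, so depth is unknown, a peak absent from a list is not shown to be unbound, and the labelled cell types could not be checked against marker expression. Intervals below are 95% intervals that treat peaks, genes or promoters as independent and cover counting error only.

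Tcf1, encoded by Tcf7, is an HMG-box factor of the TCF/LEF family that binds short sites with the core CTTTG. It acts with beta-catenin downstream of Wnt signals or with Groucho/Tle corepressors without them, and it is needed for early T cell development and for the upkeep of naive and memory-like T cells. Treg cells, defined by the factor Foxp3, restrain immune responses. Most promoters of widely expressed genes are rich in CpG dinucleotides and carry sites for factors such as Sp, Ets, Nrf1 and Yy1, whereas many TCF/LEF sites described in T cells lie in enhancers away from gene starts.

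Promoter sequences at 9 of these peaks are shown because they hold the match to the TCF/LEF motif that the promoter results below count, or because they lie at immune or wide peaks that had none. The first 5, and those of Map3k14 and Atg3, lie wholly under the peak. All come from the RefSeq promoter table of GRCm38.p6, are written 5′ to 3′ on the strand of the gene, and stop short of the annotated gene. In the first 5, capitals mark the TCF/LEF match, CTTTGAT or CTTTGTT or its reverse complement. Afap1, an actin filament adaptor, is shown from chr5:35893193-35893318 on the plus strand. Ndufa5, a subunit of respiratory complex I, is shown from chr6:24527780-24527906 on the minus strand. Abraxas2, a scaffold of the BRISC deubiquitinase, is shown from chr7:132859061-132859187 on the plus strand. Chfr, a ubiquitin ligase of a mitotic checkpoint, is shown from chr5:110135618-110135744 on the plus strand. Fyn, a Src family kinase of the T cell receptor, is shown from chr10:39369643-39369742 on the plus strand.
Afap1: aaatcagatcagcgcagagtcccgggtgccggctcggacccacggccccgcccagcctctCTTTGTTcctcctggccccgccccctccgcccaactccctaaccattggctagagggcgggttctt
Ndufa5: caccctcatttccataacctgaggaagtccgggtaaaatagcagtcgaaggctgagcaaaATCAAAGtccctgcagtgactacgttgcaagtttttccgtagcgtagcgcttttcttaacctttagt
Abraxas2: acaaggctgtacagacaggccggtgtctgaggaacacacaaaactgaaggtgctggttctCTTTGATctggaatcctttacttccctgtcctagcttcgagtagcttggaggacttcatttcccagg
Chfr: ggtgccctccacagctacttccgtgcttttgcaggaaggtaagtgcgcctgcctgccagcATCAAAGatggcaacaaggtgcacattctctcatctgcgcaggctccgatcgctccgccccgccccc
Fyn: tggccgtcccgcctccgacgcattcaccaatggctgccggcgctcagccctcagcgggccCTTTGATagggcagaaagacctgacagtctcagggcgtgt

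In the next 4, which hold no TCF/LEF match, capitals mark the GC box GGGCGG, the E-box CACGTG and the Ets motif CCGGAAG, on either strand. Map3k14, the kinase NIK of the alternative NF-kappaB pathway, is shown from chr11:103267402-103267552 on the minus strand. Atg3, an enzyme that lipidates LC3 in autophagy, is shown from chr16:45158678-45158828 on the plus strand. Bcl10, an adaptor that links the T cell receptor to NF-kappaB, is shown from chr3:145924111-145924261 on the plus strand. Irf1, an interferon-induced transcription factor, is shown from chr11:53769863-53770013 on the plus strand and held none of the 3 marked motifs in this stretch. Of the 151 bases shown, 116 at Bcl10 and 119 at Irf1 lie under the peak, and the GC box of Bcl10 lies outside it.
Map3k14: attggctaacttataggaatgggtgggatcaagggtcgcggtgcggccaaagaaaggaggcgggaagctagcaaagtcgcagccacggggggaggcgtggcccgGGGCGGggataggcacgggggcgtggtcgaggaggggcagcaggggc
Atg3: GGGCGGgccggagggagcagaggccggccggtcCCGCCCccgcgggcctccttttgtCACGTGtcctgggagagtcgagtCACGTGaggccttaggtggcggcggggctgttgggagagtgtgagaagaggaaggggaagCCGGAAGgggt
Bcl10: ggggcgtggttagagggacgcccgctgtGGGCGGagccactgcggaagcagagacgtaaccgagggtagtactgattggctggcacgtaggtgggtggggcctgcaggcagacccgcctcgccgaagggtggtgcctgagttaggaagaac
Irf1: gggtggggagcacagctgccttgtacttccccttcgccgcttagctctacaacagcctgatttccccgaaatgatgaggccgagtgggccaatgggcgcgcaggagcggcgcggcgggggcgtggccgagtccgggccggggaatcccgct

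The peaks were narrow. Their median width was 328 bp (interval 319 to 339 bp, interquartile range 272 to 410 bp), and they ranged from 240 to 1498 bp. Treg peaks at gene ends that overlapped a conventional peak had a median width of 424 bp (412 to 442 bp), and conventional-only peaks at gene ends had 400 bp (391 to 411 bp). Peaks of 500 bp or more made up 10.4% of the Treg-only set, against 33.5% of the shared Treg set and 25.8% of the conventional-only set. The smallest peak of the conventional list was 279 bp, and 157 of the 537 Treg-only peaks, or 29.2% (25.4 to 33.3%), were narrower than that, against 115 of 1043 shared Treg peaks, or 11.0% (9.19 to 13.1%). Treg-only peaks elsewhere were narrow as well, with medians of 317 bp inside genes and 308 bp between genes. Peak width can follow depth and calling limits, which differed between the lists in their minimum width, and the part these play was not tested.

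**Figure D1:**
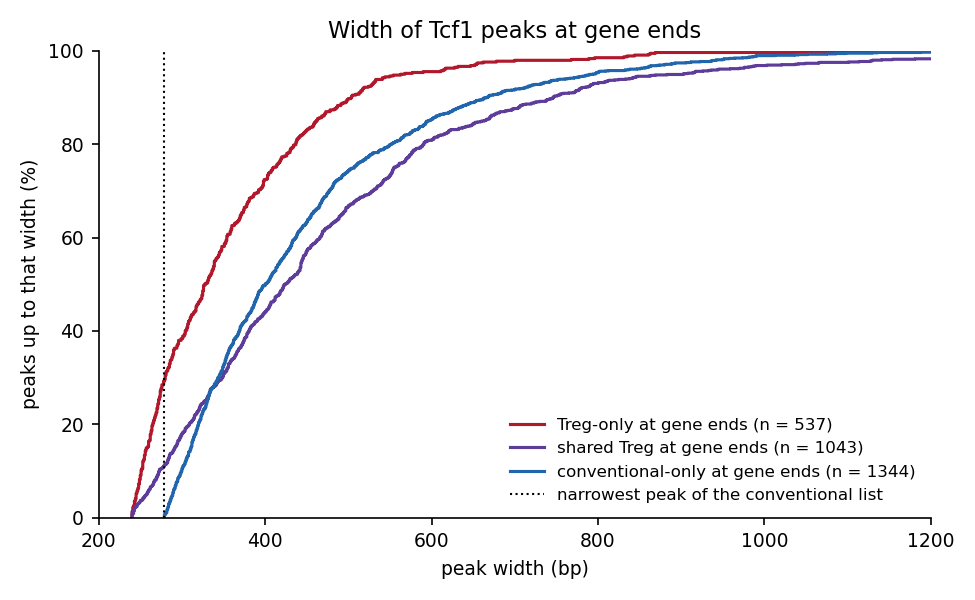
Cumulative percentage of peaks (vertical axis) up to each width in bp (horizontal axis) for Treg-only, shared Treg and conventional-only peaks at gene ends, with a dotted line at 279 bp, the narrowest conventional peak. The Treg-only curve lies left of the other 2 through most of its range. The axis stops at 1200 bp, beyond which lie 1 Treg-only, 18 shared and 4 conventional-only peaks.

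The limit on the distance to a gene end fell in a thin part of the set. The distance from midpoint to the nearest gene end had a median of 123 bp (107 to 146 bp), with 235 peaks within 100 bp of an end, 384 within 250 bp and 468 within 500 bp. Only 4 peaks lay in the last 100 bp before the limit. The peaks nearest the limit inside it were at L3mbtl3 (989 bp), A630001O12Rik (939 bp) and Gm29417 (935 bp). Just outside it were peaks at Gm3828 (1005 bp), Gm40491 (1011 bp) and Gm26812 (1019 bp). The limit on conventional midpoints did not, since 26 peaks had such a midpoint between 1018 bp, the lowest value, and 2000 bp away. There the peaks just inside the set were at Heca (1018 bp), Mepce (1040 bp) and Lsm2 (1075 bp), and those just outside it at Ttc41 (972 bp), Gm36566 (969 bp) and Ap1m1 (958 bp).

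Nearly all of these gene ends were starts. Each peak was named for the nearest end of a protein-coding gene within 1 kb or, with none, for the nearest end of another gene. RefSeq strand was known for the gene that named 393 peaks, and 377 of them, or 95.9% (93.5 to 97.7%), lay at the start of that gene, against 94.4% of shared Treg peaks and 95.2% of conventional-only peaks. The peak itself covered a gene end in 328 of 537 cases, or 61.1% (56.8 to 65.2%), against 69.0% (66.1 to 71.8%) of the wider shared Treg peaks. For 382 peaks with a start in the promoter table within 1 kb, the midpoint had a median position of -12.5 bp (-29 to 3 bp), where negative values lie upstream. The same median was -43 bp (-59 to -26 bp) for shared Treg peaks and -7.5 bp (-21 to 4 bp) for conventional-only peaks. Midpoints fell downstream of the start in 45.8% (40.7 to 51.0%) of the Treg-only peaks, against 38.3% (34.9 to 41.8%) of shared Treg peaks and 48.0% of conventional-only peaks.

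**Figure D2:**
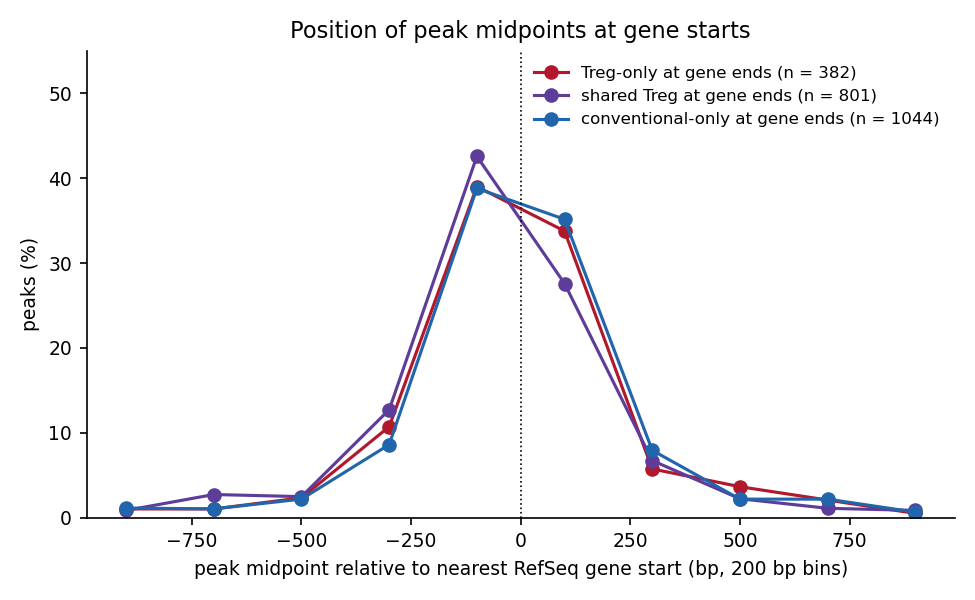
Percentage of peaks (vertical axis) whose midpoint fell in each 200 bp bin around the nearest RefSeq gene start (horizontal axis, bp, upstream negative) for 382 Treg-only, 801 shared Treg and 1044 conventional-only peaks at gene ends. All 3 sets pile up in the bins next to the start. In the bin just downstream the Treg-only share was 33.8%, against 27.6% for shared Treg peaks and 35.2% for conventional-only peaks.

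Most of the peaks stood at protein-coding genes. A protein-coding gene had an end within 1 kb of 453 peaks, or 84.4% (81.0 to 87.3%), against 88.4% of shared Treg peaks and 88.9% of conventional-only peaks. Outside the arrays the Treg-only share was 87.1% (83.9 to 89.9%), an interval that takes in both of the other values. Of the remaining peaks, 36 were named for a lncRNA gene, 17 for an rRNA gene, 13 for a pseudogene of either kind, 6 for an snRNA, 4 for a snoRNA, 3 for a tRNA and 2 for a miRNA gene, and 3 for a gene segment of an antigen receptor. The ends of 2 or more genes lay within 1 kb of 152 peaks, or 28.3% (24.5 to 32.3%). Divergent pairs, in which 2 genes start close together and run apart, could be counted only where strand was known. Of 377 peaks with a known strand for every gene end within 1 kb, 83, or 22.0% (17.9 to 26.5%), lay at such a pair, against 27.4% (24.3 to 30.7%) of shared Treg peaks and 25.2% (22.6 to 28.0%) of conventional-only peaks, so the intervals overlapped. The share of Treg peaks on a chromosome that belonged to the set ran from 9.93% on chromosome 15 to 23.4% on chromosome 8, where the 5S rRNA array lies.

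Most of the peaks lay more than 10 kb from the nearest conventional midpoint, and no baseline for these distances was computed. The nearest conventional midpoint was a median of 85331 bp away, with an interquartile range of 27905 to 210900 bp. It lay within 10 kb of 75 peaks, beyond 100 kb of 249 and beyond 1 Mb of 28. The farthest was 4751401 bp from the peak of 519 bp at the start of Gbe1, the glycogen branching enzyme. Outside the arrays, the peaks named 442 protein-coding genes. No conventional peak lay within 10 kb of the span of 359 of these genes, or 81.2% (77.3 to 84.8%), against 77.9% of all protein-coding genes, and the rule itself kept out conventional peaks close by. For 338 genes the Treg-only peak was the only peak of either list in that range. A shared Treg peak lay in the same range at 39 genes, and a conventional-only peak at 53.

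The 20 widest peaks outside the arrays ranged from 590 to 1498 bp. The widest lay at Gm40237, a lncRNA gene, at chr4:118547216-118548713. Its midpoint lay 291 bp from the 3′ end of the gene and 559 bp downstream of the start, so the peak covered both. Signalling regulators were among the 20. The peak at the start of Map3k14, at chr11:103267002-103267836, was 835 bp wide and its midpoint lay 18 bp upstream of the start, with a conventional midpoint 1365 bp away. The peak at Smad7, the inhibitory Smad of TGF-beta signalling, was at chr18:75367036-75367879, 844 bp wide and 93 bp from a gene end. Its nearest conventional midpoint was 6559 bp away, and 2 shared Treg peaks lay within 10 kb of the span of Smad7. Itsn1 and Cdk17, named below, each had 1 shared Treg peak in that range. Itsn1, an endocytic scaffold, had a peak of 863 bp, and Mycbp2, a large ubiquitin ligase, one of 861 bp. Jkamp, a membrane protein that binds JNK, had one of 768 bp. A peak of 678 bp lay at the adjoining ends of Zbtb25 and Zbtb1, with its midpoint 453 and 616 bp from them. The peak covered another RefSeq start of Zbtb1, 147 bp upstream of its midpoint. Zbtb1 is needed for lymphocyte development. Cdk17, a cyclin-dependent kinase, had a peak of 655 bp, and Mex3c, an RNA-binding ubiquitin ligase, one of 654 bp. Ahctf1, which starts the assembly of nuclear pores, had one of 652 bp and Fam53a one of 632 bp. Atg3 had one of 628 bp with its midpoint 4 bp from the start, and Sltm and Klhl9 had peaks of 614 and 611 bp. The other wide peaks lay at noncoding genes, gene models or a gene segment: Mir1904 (831 bp), Gm26876 (789 bp), Trbv12-1, a variable segment of the T cell receptor beta locus (647 bp), Gm51814 (617 bp), Rnu3b4 (616 bp) and Gm30364 (590 bp).

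A few genes had more than 1 of these peaks. Fam117b had 2, of 295 and 244 bp, 78 and 594 bp from its end. Sdhaf1, an assembly factor of succinate dehydrogenase, had peaks of 358 and 276 bp. Tbc1d10c, known as carabin, an inhibitor of calcineurin in lymphocytes, had peaks of 442 and 271 bp, 850 and 737 bp from its ends. Setd1b, a methyltransferase of histone H3 lysine 4, had 1 near each end of its span, of 253 bp at 787 bp and 426 bp at 884 bp. The 271 bp peak of Tbc1d10c lay nearer to Ppp1ca, at 242 bp, and the 253 bp peak of Setd1b nearer to Rhof, at 555 bp. Ggnbp2 and its antisense gene Ggnbp2os shared peaks of 325 and 322 bp, and 6820431F20Rik had peaks of 517 and 341 bp. Close groups of different genes were also seen. The tightest run with 3 genes was Tbc1d10c, Ppp1ca and Clcf1 within 30 kb on chromosome 19, and the fullest held 5 peaks within 76 kb on chromosome 4, at Klhl9 and the gene models Gm13289, Gm13276, Gm13278 and Gm13279.

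Genes known for T cell function were a small share of the set. Of all RefSeq genes on these chromosomes, 1.45% had such a peak within 1 kb of an end, and of protein-coding genes 2.55%, or 526 of 20661. Of 222 distinct genes on 8 T cell lists, 6 had one, or 2.70% (0.998 to 5.79%), which is close to the share of all protein-coding genes. Shared Treg peaks lay at the ends of 37 of the 222 genes and conventional-only peaks at 29. All 3 lists of other cell types had none: 0 of 18 CD8 T cell and cytotoxic genes, 0 of 17 B cell genes and 0 of 20 myeloid genes.

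In the T cell receptor signalling list 3 of 30 genes, or 10.0% (2.11 to 26.5%), had a peak. That at Bcl10, at chr3:145924146-145924488, was 343 bp wide and 55 bp from the gene end. Fyn had one of 285 bp at chr10:39369537-39369821, 64 bp from its end, and Sos1, an exchange factor for Ras, one of 247 bp at chr17:80480487-80480733. In the interferon list 2 of 27 genes had one: Irf1, with 392 bp at chr11:53769895-53770286, and Ifngr1, a chain of the interferon gamma receptor, with 270 bp at chr10:19591762-19592031. Among 28 activation transcription factors only Rela, the p65 subunit of NF-kappaB, had one, of 263 bp at chr19:5637282-5637544 and 29 bp from the gene end. The nearest conventional midpoint was 27199 bp from the Rela peak and between 139076 and 299175 bp from the other 5. Except for Irf1 and Bcl10, these peaks were narrower than the set's median. The interval of each of these lists includes 2.55%, the share of all protein-coding genes. Shared Treg peaks lay at 6 genes of the T cell receptor list, 2 of the interferon list and 5 of the activation factors. Conventional-only peaks lay at 2, 4 and 6 genes in the same order.

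The other 5 T cell lists had no Treg-only peak, while other Tcf1 peaks lay at ends of their genes. The Treg signature list had 0 of 31 genes with a Treg-only peak (upper bound 11.2%), against 3 with a shared Treg peak and 1 with a conventional-only peak. The Wnt pathway list had 0 of 32, against 8 shared and 5 conventional-only. The naive and memory list had 0 of 24, against 5 and 4. The helper lineage list had 0 of 31, against 5 and 2, and the NF-kappaB and TNF list 0 of 21, against 4 and 6. That last list does not hold Rela, Bcl10 or Map3k14, NF-kappaB genes that had a Treg-only peak. Among all protein-coding genes the matching shares were 2.55% for Treg-only, 5.28% for shared Treg and 6.86% for conventional-only peaks.

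Gene families of basic cell functions were covered by 14 lists with 1308 genes. Of these genes, 49 had a Treg-only peak, or 3.75% (2.78 to 4.92%), against 2.55% of protein-coding genes. This interval lies above 2.55% and overlaps that of the T cell lists. Shared Treg peaks lay at 12.6% of the same genes, against 5.28% of protein-coding genes, and conventional-only peaks at 13.4%, against 6.86%. The splicing list had the highest share of these lists, with 6 of 68 genes, or 8.82% (3.31 to 18.2%). Its widest peaks were at Prpf19, a ubiquitin ligase of the spliceosome (458 bp), Snrpd2, an Sm core protein (433 bp), and Snrpc, a protein of the U1 particle (409 bp). Shared Treg peaks lay at 15 genes of that list and conventional-only peaks at 18.

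Among RNA polymerase II factors, 5 of 78 genes had a Treg-only peak, or 6.41% (2.11 to 14.3%). They were the TFIID subunits Taf3, Taf4 and Taf8, the related Taf6l and the Mediator subunit Med15, with peaks between 281 and 533 bp. Zinc finger genes gave the largest number, 16 of 455 or 3.52% (2.02 to 5.65%), led by the joint peak of Zbtb25 and Zbtb1 and by Zfp628 (418 bp) and Zfp870 (399 bp). The respiratory chain list had 4 of 93, among them Ndufa5 (437 bp, 3 bp from the gene end), Ndufb3 (281 bp) and Ndufb1 (275 bp), all of complex I. The ubiquitin list had 4 of 95, with Ube3c (381 bp) and Otud7b (370 bp) the widest, and the chromatin list 3 of 94, Setd1b, Brd7 (426 bp) and Brd2 (335 bp). The tRNA synthetase list had 2 of 33, Tars (355 bp) and Lars (250 bp), and the proteasome list 2 of 50, Psma1 (348 bp) and Psmb4 (281 bp). From the polymerase II list to the proteasome list, each interval includes 2.55%, the share of all protein-coding genes. Shared Treg peaks lay at 14, 30, 6, 12, 21, 4 and 4 genes of these lists, in the order given. Conventional-only peaks lay at 10, 39, 7, 16, 14, 5 and 5.

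Other families were likewise near the share of all protein-coding genes, 2.55%, or had intervals that include it. Ribosomal protein genes had 1 Treg-only peak among 80 genes, or 1.25% (0.0316 to 6.77%), at Rps27a (353 bp), against shared Treg peaks at 18 genes and conventional-only peaks at 17. Translation factors had 1 of 68, or 1.47% (0.0372 to 7.92%), at Eif3f (345 bp), against 11 and 11. Chaperone genes had 3 of 80, or 3.75%, at Cct4 (354 bp), Dnajc24 (294 bp) and Dnajb2 (262 bp), against 18 and 17. Mitochondrial ribosome genes had 2 of 78, or 2.56%, Mrps7 (483 bp) and Mrpl14 (252 bp), against 8 and 10, and cell cycle genes 0 of 32, against 4 and 6. A list of current histone symbols, added after the data were seen because the older symbols matched only 4 genes, had 5 of 74 genes with a Treg-only peak, or 6.76% (2.23 to 15.1%), against 5 with a shared Treg peak and 1 with a conventional-only peak. The 5 were served by 3 peaks: that of 468 bp at the pair H2bc23 and H2ac23, that of 471 bp at the pair H4bc24 and H2ac24, and that of 344 bp at H2az2, which encodes a variant histone.

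**Figure D3:**
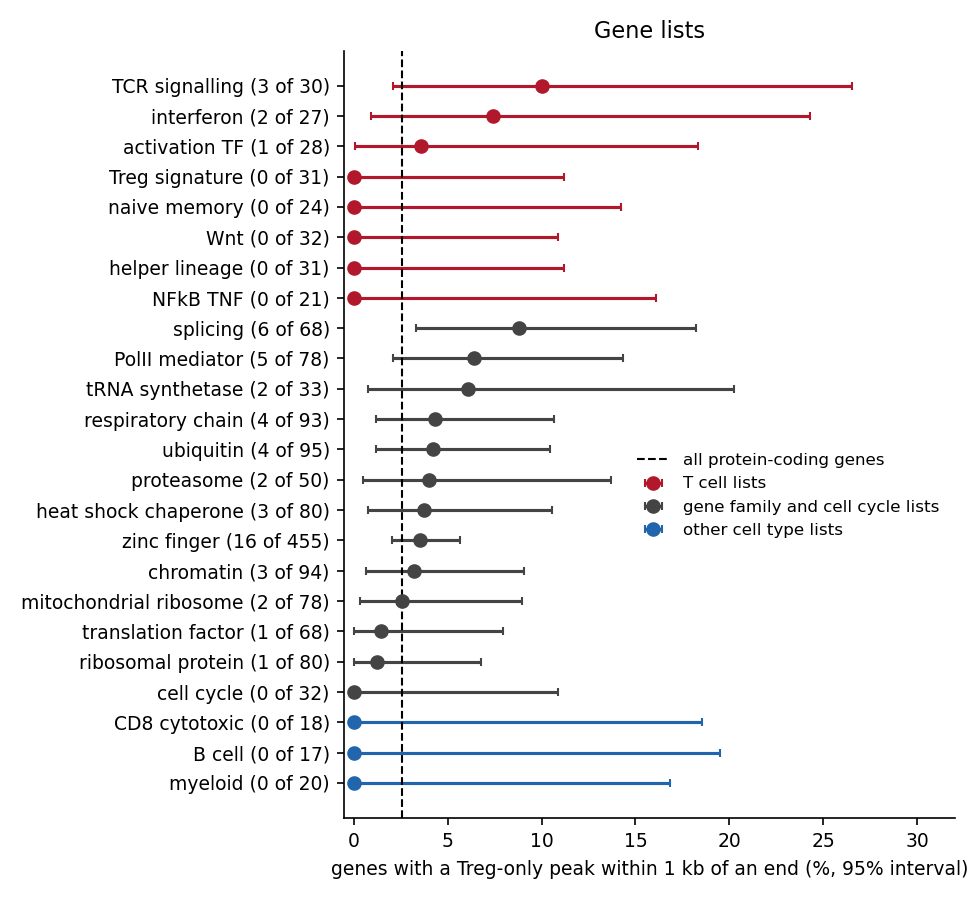
Percentage of the genes on each list with a Treg-only peak within 1 kb of an end (horizontal axis, with 95% exact binomial intervals as bars), for T cell lists in red, gene family and cell cycle lists in grey and other cell type lists in blue, with counts beside each name. The dashed line is the share of all protein-coding genes, 2.55%, and only the interval of the splicing list lies wholly above it.

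Further genes are named here after their values were seen, for their known roles in T cells, and their number is no measure of the set. Jak2, a kinase of cytokine receptors, had a peak of 530 bp at chr19:29251642-29252171, with its midpoint 104 bp downstream of the start. Fut7, a fucosyltransferase that makes selectin ligands, had one of 533 bp, and Dusp2, a phosphatase of MAP kinases, one of 468 bp with a conventional midpoint 1934 bp away. The forkhead genes Foxp4 and Foxo3 had peaks of 491 and 375 bp at their starts, with conventional midpoints 187445 and 1347 bp away. All 3 salt-inducible kinases had one: Sik1 (478 bp), Sik3 (438 bp) and Sik2 (245 bp). Within 10 kb of the gene span, Sik1 also had 1 conventional-only peak and Sik3 had 2. Both Maml1 and Maml2, coactivators of Notch, had a Treg-only peak, of 283 and 303 bp. Maml2 also had 1 shared Treg peak within 10 kb of its span. Ptpn2, a phosphatase that dampens cytokine and T cell receptor signals, had a peak of 272 bp, and Ndfip1, an activator of the ubiquitin ligase Itch, one of 528 bp. Itga4, the alpha4 integrin, had one of 364 bp whose nearest conventional midpoint lay 1309418 bp away. Bach1, a repressor related to Bach2, had one of 354 bp.

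The 5S rRNA array held the most members of any array. At chr8:123540397-123624140, 84 kb held 18 Treg peaks, all of them Treg-only and at gene ends, and 0 conventional peaks. Their widths ranged from 251 to 796 bp with a median of 389 bp. The stretch spans 47 rRNA genes with a median length of 121 bp, spaced at a median of 1698 bp. Of the 18 peaks, 17 lay within 1 kb of an rRNA gene and 7 overlapped one. At that spacing most positions in the stretch lie within 1 kb of a gene end, so the placement of these peaks at gene ends follows largely from the rule. How many peaks would overlap an rRNA gene by placement alone was not computed. These genes are repeated copies, and the part that read placement among copies had in these peaks was not tested. Of the other 2 arrays, both on chromosome 6, the first, at chr6:47651653-47686913, held 18 Treg peaks, 7 of them in the set, and 8 conventional peaks. Its set members lay at Gm40365, Gm40367 and Gm40369 and were 381 to 1045 bp wide. The second, at chr6:47738404-47773136, held 12 Treg peaks, 1 of them in the set (398 bp, at Gm40363), and 8 conventional peaks.

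Small RNA genes formed a minor share. At chr7:59768560-59889652, 4 peaks of 264 to 478 bp lay at the snoRNA genes Gm25210, Gm26433, Snord116l15 and Snord116l4. Snord116 genes are repeated C/D box snoRNA genes of an imprinted region, whose human counterpart is the Prader-Willi locus. Among the 6 peaks named for snRNA genes, that at Rnu3b4, a copy of the U3 RNA, was 616 bp wide. A peak of 240 bp, the minimum width, lay 13 bp from an end of n-TVaac7, a valine tRNA gene, and near 2 further tRNA genes. The peak at Mir203 was 251 bp wide at chr12:112130306-112130556, with its midpoint 449 bp before the gene, and that at Mir1904 was 831 bp wide at chr13:109902617-109903447. The mature miRNAs of these genes are shown to identify them, from RefSeq on GRCm38.p6, with the seed (bases 2 to 8) in capitals. The 3 seeds differ.
mmu-miR-203-5p: aGUGGUUCuugacaguucaaca
mmu-miR-203-3p: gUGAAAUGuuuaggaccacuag
mmu-miR-1904: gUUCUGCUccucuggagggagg

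The promoters under the peaks were CpG-rich. Of 518 peaks on the chromosomes that the promoter table covers, 331, or 63.9%, overlapped a promoter window, which runs from 250 bases before to 50 after a gene start. They touched 436 windows of 395 genes. The ratio of observed to expected CpG was at least 0.6 in 90.4% (87.2 to 93.0%) of these windows, against 90.0% of windows under shared Treg peaks, 90.1% under conventional-only peaks and 36.4% of all promoters. Median GC content was 64.7%, against 64.0% for shared Treg, 63.3% for conventional-only and 53.0% for all promoters. Because composition sets how often short words occur, the motif shares below are set beside the 11424 CpG-rich promoters as well as all 31396.

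The TCF/LEF motif was uncommon. CTTTGAT or CTTTGTT, on either strand, occurred in 7.34% (5.07 to 10.2%) of the 436 windows, against 12.4% (10.5 to 14.7%) under shared Treg peaks, 4.94% (3.80 to 6.30%) under conventional-only peaks, 4.96% of CpG-rich promoters and 9.33% of all promoters. The 32 windows with a match lay under 24 peaks, and in 18 of these the match was inside the peak. Overlapping windows can hold the same match, which is then counted once per window, as at Gstcd and Ints12 and at Fyn and Gm31616. The windows are thus not all independent, and the interval does not allow for this. The 8 widest were at Zbtb25 and Zbtb1, Afap1, Ndufa5, Abraxas2, Ipo9, the divergent pair Gstcd and Ints12, Chfr, and Kctd5, where the match lay outside the peak. In the sequences printed above, the match began 66 bp upstream of the start of Afap1, 156 bp upstream of Ndufa5, 104 bp upstream of Abraxas2, 152 bp upstream of Chfr and 96 bp upstream of Fyn. At Fyn it lay 27 bp from the middle of the peak. The core CTTTG alone occurred in 41.5% of windows, against 46.7% under shared Treg peaks, 42.1% under conventional-only peaks and 40.7% of CpG-rich promoters.

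Among motifs of general promoter factors, the GC box and the CCAAT box were frequent and most others were not. The GC box GGGCGG, bound by Sp factors, occurred in 79.1% (75.0 to 82.8%) of windows, against 72.7% (69.8 to 75.4%) under shared Treg peaks, 72.7% under conventional-only peaks and 72.4% of CpG-rich promoters. The Ets motif CCGGAAG occurred in 21.6%, against 25.7%, 26.3% and 18.8% in the same order, and the Gabp motif ACTTCCGG, which overlaps it, in 10.3%, against 13.2%, 13.5% and 8.63%. The Nrf1 motif GCGCATGCG occurred in 7.11% (4.88 to 9.94%), against 3.11% (2.12 to 4.39%) under shared Treg peaks, 3.81% (2.81 to 5.03%) under conventional-only peaks and 4.24% of CpG-rich promoters. The Yy1 motif AAGATGGCG occurred in 5.50%, against 3.61%, 5.43% and 3.39%, the E-box CACGTG in 13.1%, against 11.3%, 13.9% and 11.2%, and the CRE TGACGTCA in 5.96%, against 4.82%, 4.78% and 3.70%. The Znf143 motif ACTACAA occurred in 5.73%, against 5.32%, 4.54% and 3.76%, and the CCAAT box in 37.8%, against 37.0%, 38.8% and 35.6%.

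The other motifs were rare in these windows. The NF-kappaB motif GGGANTTCC occurred in 0.688% (0.142 to 2.0%) of Treg-only windows, against 2.71% under shared Treg peaks, 2.59% under conventional-only peaks and 2.3% of CpG-rich promoters. The forkhead motif TGTTTAC occurred in 0.917% (0.251 to 2.33%), against 2.61%, 3.40% and 2.54% in the same order. The Runx motif TGTGGTT occurred in 2.98%, against 4.32%, 3.81% and 2.63%, and the AP-1 motif TGANTCA in 2.75%, against 3.92%, 4.13% and 3.48%. The TATA box TATAAA occurred in 2.98%, against 5.62%, 5.27% and 5.95%. All motifs were searched on both strands, and a match is a run of letters, not a bound site. With 16 motifs compared over 5 sets and no test, single differences among these shares carry no error rate.

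**Figure D4:**
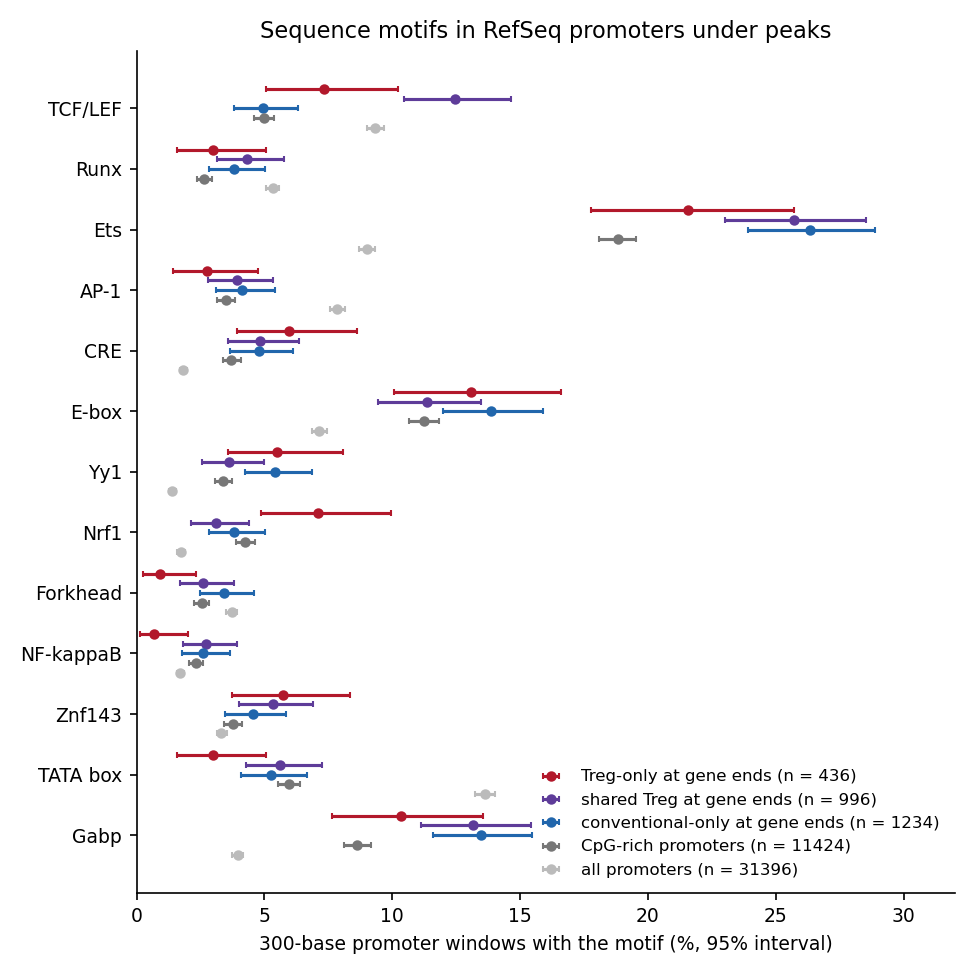
Percentage of 300-base RefSeq promoter windows holding each motif (horizontal axis, with 95% exact binomial intervals as bars) under Treg-only, shared Treg and conventional-only peaks at gene ends, and in CpG-rich and all promoters. The Treg-only TCF/LEF share, 7.34%, lies between those of conventional-only and shared Treg peaks, and its Nrf1 share, 7.11%, has an interval above that of shared Treg peaks. The GC box, the CCAAT box and the 5-base TCF core, all above 35% in these sets, are left off the axis.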

How the data were processed

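The authors deposited 1 peak list for Treg and 1 for conventional cells, each with 3 columns (chromosome, start, end) and no other value, so the deposited unit is a position. Lists are labelled as filtered. Tools named in the submitters' processing notes are Bowtie2 2.3.4.1, MACS2 2.1.1 and FastQC, with the mm10 build. The filter, the control and any pooling are not given in the sources used here. Libraries had 18 to 21 PCR cycles, per the labels' protocols.

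Positions were written 1-based. Peaks were shared if they overlapped by at least 1 bp. Genes came from the RefSeq table of GRCm38.p6, whose spans have no strand. Strand, starts and sequences came from its promoter table, which lacks some genes and chromosome 18. An array was a run of peaks at most 20 kb apart with at least 10 peaks. Python 3.11.15, numpy 2.4.6, pandas 2.3.3, scipy 1.17.1 and matplotlib 3.10.9 were used. Shares have exact Clopper-Pearson intervals and medians order-statistic intervals, at 95%. Classes, distances and intervals were tested on simulated data. The members and gene lists were chosen with earlier results of these data known. The genes named are the 20 widest peaks outside arrays, up to 4 genes per T cell list and 3 per other list by width, genes with 2 or more peaks, 8 peaks with a TCF/LEF match, and 3 peaks on each side of each limit. Names outside this rule are in counts of 5 or fewer or are stated as chosen later.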

Additional observations from a re-analysis of the deposited data

How the results depend on the processing

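Of 81 recomputed values, 66 stayed within the interval or within 1.5 times of the main value, and 15 did not. The main share of Treg-only peaks at gene ends was 40.4% (37.7 to 43.1%), or 537 of 1330. The same share was 54.8% (52.5 to 57.1%) for shared Treg peaks and 53.8% (51.8 to 55.8%) for conventional-only peaks. The main share of genes on the fixed lists with a Treg-only peak was 3.48% (2.63 to 4.51%), or 55 of 1580. With ends within 500 bp the share of Treg-only peaks at ends was 35.2%, the median distance 100 bp and the share at 2 or more genes 23.7%. With ends within 2000 bp they were 46.2%, 152 bp and 35.8%. With protein-coding genes only they were 34.1% at ends and 17.9% at 2 or more genes, with 100% at a protein-coding gene by construction. Counting any base of the peak made the median distance 0 bp by construction. In the wider part of the Treg list 197 peaks were left, 47.0% of Treg-only peaks lay at ends, the median width was 442 bp by construction, and 1.08% of list genes had a peak, from fewer peaks. The 5-base core raised the TCF/LEF share to 41.5% by construction. Merging, X and Y, arrays left out and other midpoint rules moved no value this far. Counting a peak as shared only from an overlap of 0.5 of the Treg peak left every value unchanged. That setting could hardly move a value by construction. The midpoint rule still kept out partly overlapping peaks with a conventional midpoint within 1000 bp. Adding current histone symbols, after seeing the data, gave 3.64% of list genes. No paired analysis was possible because each cell type has 1 library. Leaving out a replicate was not possible for the same reason. Depth is unknown, so an absent peak may be one below the calling limit.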

Other observations

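The sex chromosomes lie outside the rule. On X, 9 of 59 Treg-only peaks lay at gene ends, among 86 Treg peaks, against 15 of 26 conventional-only peaks among 49 conventional peaks. The 9 were at Pim2, a survival kinase, Nono and Thoc2, which act in RNA processing, Rlim, the ubiquitin ligase that takes part in X inactivation, Pgk1, a glycolytic enzyme, Siah1b, a ubiquitin ligase, and Fam90a1b, Gm14349 and Erdr1. On Y, 3 of 18 Treg-only peaks lay at gene ends, 2 of them at Gm52481 and 1 at Mid1-ps1, against 0 of 2 conventional-only peaks. These genes are named after their values were seen.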
